A study of Mus musculus with 19 samples.

Results

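A set of 8 genes that specify and maintain the melanocyte lineage was followed in B16-F10 cells with a Mettl5 knockout (KO) and with a scrambled control (SCR): the transcription factor genes Mitf, Sox10, Pax3 and Tfap2a, the coactivator gene Cited1, and the receptor genes Kit, Mc1r and Ednrb. The 8 genes were taken by name from 55359 genes in the count tables, from the translational efficiency table, and from melanoma cells among the single cells of tumours. B16-F10 is a pigmented melanoma line of C57BL/6 mice, and METTL5 is an enzyme that methylates RNA within the small subunit of ribosomes. Input RNA and ribosome footprints were measured in cultured KO cells and cultured SCR cells, with 2 libraries per genotype and assay. The labels give cycloheximide (100 µg/ml, 8 min) for the footprint libraries of both genotypes and give none for input RNA. Single cells came from 1 KO tumour library and 1 SCR tumour library, both sorted as live CD45-positive cells. The columns of cultured cells read as KO are headed POOL and were taken as KO because the others are headed SCR. The labels give neither the edit nor whether the KO cells are 1 clone. They do not say that the libraries came from separate cultures, and p-values therefore measure only the spread between these libraries.

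The 4 factors act in a network in which MITF is the central regulator of pigment genes, of melanocyte survival and of proliferation. SOX10 and PAX3 bind and activate the Mitf promoter, and TFAP2A works with MITF at many of its targets. CITED1 is a transcriptional coactivator that binds CBP and p300 and was first cloned from pigment cells as melanocyte-specific gene 1. KIT is the receptor of stem cell factor, needed for melanoblast migration and survival. MC1R is the receptor of melanocyte-stimulating hormone and raises cyclic AMP, which induces Mitf. EDNRB is a receptor of endothelins, needed for the early spread of melanoblasts in the embryo.

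Total gene counts were 48692578 and 43601773 in KO input RNA against 38968000 and 43083013 in SCR input RNA, and 14555963 and 21366608 in KO footprints against 28059683 and 31301806 in SCR footprints. Mettl5 had 6.46 and 6.21 normalised CPM (counts scaled to the same library size, with TMM factors) in KO input RNA against 9.23 and 9.41 CPM in SCR input RNA, and the transcript fell (log2 fold change -0.56, SE 0.13, edgeR quasi-likelihood adjusted p = 0.0284). Reads from an edited but still transcribed gene are counted, so the count checks the knockout only in part. The 10 melanoma markers (such as Pmel, Dct and Tyr) summed to 13508 and 13659 CPM in KO input RNA and to 13059 and 13241 CPM in SCR input RNA, with none at 0. Markers of all leukocytes, among them Ptprc, summed to at most 1.03 CPM in any library of cultured cells, and those of fibroblasts to at most 52.1 CPM. Mettl5 footprints were 11.1 and 11.6 CPM in KO cells and 15.1 and 13.8 CPM in SCR cells, a change of -0.35 (SE 0.09, edgeR adjusted p = 0.112) that missed the threshold. In bulk libraries fewer cells of a type and less RNA per cell cannot be told apart.

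Cited1 and Kit were the members that changed most in culture, and both were lower in KO cells. Their transcripts fell in edgeR and in all 9 alternatives. Their footprints and footprints per transcript fell in edgeR as well, but the footprint call was lost in 5 of 9 alternatives for Kit and 2 of 9 for Cited1, and the call on footprints per transcript in 12 of 13 for Kit and 9 of 13 for Cited1. Mitf transcript fell slightly and Mc1r transcript rose slightly, and their footprints did not pass the test. Sox10, Pax3 and Tfap2a passed the test in no assay.

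Of the 8 members, 7 had enough counts to be tested in each comparison. In input RNA 1 member rose, where 9.56% of all 20025 genes tested rose, and 3 fell, where 7.21% of all genes fell. In footprints 2 members fell, against 1.78% of 16878 genes, and 0 rose, against 0.51% of all genes. In translational efficiency, the change of footprints relative to input RNA, 2 fell, against 2.98% of 23211 genes, and 0 rose, against 0.987% of all genes. The filter of that fit ran over all groups, so a gene could enter on its counts in 1 assay alone. Only 13779 genes passed the filters of both other fits, so the shares for translational efficiency are over a broader set with poorly counted genes. A call is a Benjamini-Hochberg adjusted p below 0.05 over all genes tested in edgeR's quasi-likelihood F test, and the translational efficiency fit shares its libraries with the other fits. The median log2 fold change of the 7 members was -0.07 for input RNA, -0.09 for footprints and -0.04 for footprints per transcript, beside -0.01, 0.01 and -0.03 over all genes tested.

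**Figure D1:**
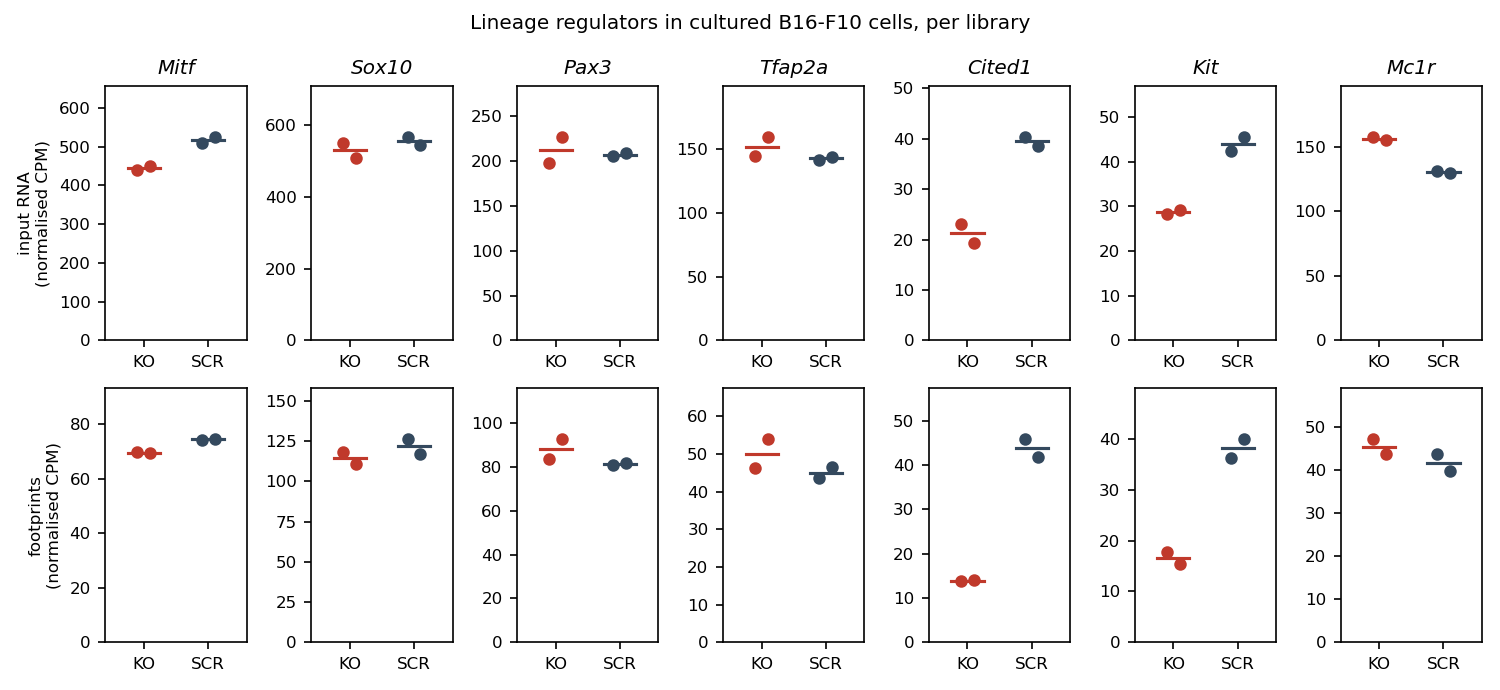
Normalised CPM (vertical axes, each from 0) of 7 members in the KO and SCR libraries of input RNA (top row) and footprints (bottom row) of cultured cells. Points are single libraries and lines are means of 2; Cited1 and Kit lie lower in both KO libraries than in both SCR libraries in both assays, at 13.8 and 14.0 CPM against 45.9 and 41.9 CPM for Cited1 footprints.

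Among the transcription factors, Mitf had 441 and 451 CPM in KO input RNA, against 510 and 525 CPM in SCR input RNA. Both KO libraries lay below both SCR libraries, and the transcript fell (log2 fold change -0.22, SE 0.04, edgeR adjusted p = 0.0205, n = 2 each). Leaving out SCR replicate 1 gave an adjusted p of 0.118, leaving out SCR replicate 2 gave 0.174, and no filter on low counts gave 0.0592. Mitf footprints were 69.8 and 69.4 CPM in KO cells against 74.4 and 74.7 CPM in SCR cells. The groups did not overlap, but the change of -0.10 (SE 0.05, edgeR adjusted p = 0.321) missed the threshold, and its 95% interval ran from -0.24 to 0.04.

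Sox10, the factor of the neural crest that keeps the melanocyte identity, had 550 and 510 CPM in KO input RNA and 568 and 544 CPM in SCR input RNA. Its footprints were 118 and 111 CPM in KO cells and 126 and 117 CPM in SCR cells. The groups overlapped in both assays, with log2 fold changes of -0.07 in input RNA (SE 0.05, edgeR adjusted p = 0.423) and -0.09 in footprints (SE 0.07, edgeR adjusted p = 0.478). The 95% interval of the input RNA change ran from -0.20 to 0.06, and that of the footprint change from -0.27 to 0.09.

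Pax3, a paired-box factor upstream of Mitf, had 197 and 227 CPM in KO input RNA and 205 and 208 CPM in SCR input RNA. KO replicate 1 lay below and KO replicate 2 above the SCR libraries (log2 fold change 0.03, SE 0.07, edgeR adjusted p = 0.769, 95% interval -0.13 to 0.20). In footprints Pax3 had 83.3 and 92.6 CPM in KO cells against 80.5 and 81.5 CPM in SCR cells. The KO libraries were both higher, but the change of 0.12 (SE 0.07, edgeR adjusted p = 0.370) did not pass the test.

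Tfap2a, which encodes AP-2 alpha, had 144 and 160 CPM in KO input RNA and 142 and 144 CPM in SCR input RNA. KO replicate 2 stood above the other libraries, KO replicate 1 was barely above SCR, and the change of 0.09 (SE 0.06, edgeR adjusted p = 0.365) did not pass the test. Tfap2a footprints were 46.2 and 54.0 CPM in KO cells and 43.5 and 46.5 CPM in SCR cells, which overlapped (log2 fold change 0.16, SE 0.09, edgeR adjusted p = 0.369).

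Footprints per transcript of the 4 factors did not pass the test. The log2 fold change was 0.10 for Mitf (95% interval -0.06 to 0.26), -0.04 for Sox10 (-0.25 to 0.17), 0.07 for Pax3 (-0.20 to 0.33) and 0.05 for Tfap2a (-0.24 to 0.34), with edgeR adjusted p of at least 0.489. All 4 intervals include 0, and they do not show that the efficiency was the same in both genotypes.

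Cited1 had 23.1 and 19.4 CPM in KO input RNA, against 40.4 and 38.6 CPM in SCR input RNA. Both KO libraries were far below both SCR libraries, and the transcript fell (log2 fold change -0.89, SE 0.10, edgeR adjusted p = 0.00338). Cited1 footprints were 13.8 and 14.0 CPM in KO cells, against 45.9 and 41.9 CPM in SCR cells. They rest on 210 and 308 counts in KO cells and 1244 and 1253 counts in SCR cells. Footprints fell more than the transcript did, by a log2 fold change of -1.66 (SE 0.08, edgeR adjusted p = 0.0124). The interaction of genotype and assay was -0.78 (SE 0.14, edgeR adjusted p = 0.0339), so that footprints per transcript fell as well. That call was lost in 9 of 13 alternative fits, without every library in turn but KO input RNA replicate 2, in limma voom and with a replicate block. All alternatives kept its direction, with log2 fold changes of -0.91 to -0.65 and adjusted p of 0.0023 to 0.142. The footprint call was lost without KO footprint replicate 1 (adjusted p = 0.0668) and with a replicate block (adjusted p = 0.0768).

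Kit had 28.3 and 29.2 CPM in KO input RNA, against 42.4 and 45.6 CPM in SCR input RNA. The transcript fell in both KO libraries (log2 fold change -0.61, SE 0.07, edgeR adjusted p = 0.00358). Kit footprints were 17.8 and 15.3 CPM in KO cells, against 36.2 and 39.9 CPM in SCR cells, from 270 and 338 counts in KO cells and 981 and 1196 counts in SCR cells. Footprints fell by a log2 fold change of -1.20 (SE 0.10, edgeR adjusted p = 0.0276), and footprints per transcript by -0.61 (SE 0.13, edgeR adjusted p = 0.0475). The footprint call was lost without any 1 of the 4 footprint libraries and with a replicate block, at adjusted p of 0.054 to 0.103. The call on footprints per transcript held in DESeq2 alone among 13 alternatives, whose adjusted p ran from 0.0139 to 0.172 and whose log2 fold changes ran from -0.71 to -0.52.

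Mc1r had 158 and 155 CPM in KO input RNA, against 131 and 130 CPM in SCR input RNA. The transcript rose in both KO libraries (log2 fold change 0.26, SE 0.05, edgeR adjusted p = 0.0138), although leaving out SCR replicate 1 or SCR replicate 2 gave adjusted p of 0.096 and 0.0963. Its footprints were 47.3 and 43.7 CPM in KO cells and 43.7 and 39.8 CPM in SCR cells, and the lower KO value was only just above the higher SCR value. The footprint change of 0.12 (SE 0.08, edgeR adjusted p = 0.389) and the change of footprints per transcript of -0.16 (SE 0.08, edgeR adjusted p = 0.348) did not pass the test. Ednrb had 0 counts in all 4 input RNA libraries, and in footprints 1 count in KO replicate 2 and 0 in the other libraries. A count of 0 allows up to 0.0616 and 0.0688 CPM in KO input RNA and up to 0.0770 and 0.0696 CPM in SCR input RNA (3 counts per library, counting error only), so Ednrb was below detection in culture and was not tested.

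**Figure D2:**
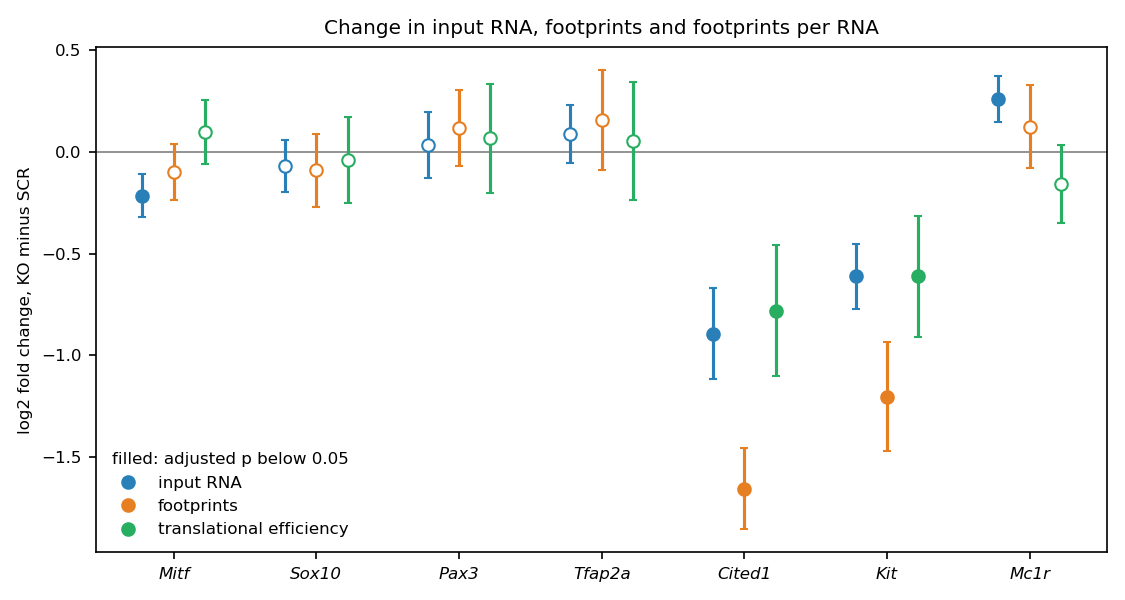
Log2 fold change (KO minus SCR, vertical axis) of 7 members in input RNA, footprints and translational efficiency, with 95% intervals from edgeR; filled points passed an adjusted p below 0.05. Cited1 and Kit lie below 0 in all 3, furthest in footprints at -1.66 and -1.20, while the intervals of Sox10, Pax3 and Tfap2a include 0.

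The authors' deposited table of translational efficiency (TE) gives a ratio of footprints to input RNA for each genotype. In the authors' deposited table the TE of Cited1 was 0.354 in KO cells and 0.624 in SCR cells (log2 fold change -0.82, the authors' adjusted p = 0.000651). For Kit the authors' deposited table has a TE of 0.310 in KO cells and 0.486 in SCR cells (log2 fold change -0.65, the authors' adjusted p = 0.0015). Over all 23211 genes tested here the median TE in the authors' deposited table was 0.293 in KO cells and 0.301 in SCR cells. That set includes genes with few counts in 1 assay, so ranks in it are not ranks among well-counted genes. Ednrb, with 0 counts in SCR cells in both assays, has a TE of 1 in SCR cells in the authors' deposited table, above 71.6% of genes. Mitf stood low in that table, with a TE of 0.0843 in KO cells and 0.0807 in SCR cells, above 24.8% of genes in KO cells and 23.4% in SCR cells in the authors' deposited table. Cited1 was above 54.5% of genes in KO cells and 65.3% in SCR cells, and Kit above 51.3% in KO cells and 60.5% in SCR cells, in the authors' deposited table. Sox10, Pax3, Tfap2a and Mc1r had TE of 0.117, 0.225, 0.178 and 0.157 in KO cells and of 0.123, 0.220, 0.176 and 0.179 in SCR cells in the authors' deposited table, whose adjusted p for these 4 was at least 0.285. That table and the fits above rest on the same libraries.

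By profile over the 8 libraries, each assay centred on its own mean, 2 members spanned at least 1 log2 unit: Cited1 (1.73) and Kit (1.38). Among 7859 genes with a mean of at least 3 log2 CPM in both assays, the 3 closest to Cited1 by root mean square difference were Col4a2 (0.09), Ptgds (0.11) and Col4a1 (0.17). Col4a1 and Col4a2 encode the chains of type IV collagen, and Ptgds encodes a prostaglandin D synthase that pigment cells express. The 3 closest to Kit were Abcc2, an organic anion exporter (0.11), C2, a complement component (0.11), and Igf2r, the receptor of mannose 6-phosphate and IGF2 (0.12). Col4a2 changed by -1.09 in input RNA and -1.71 in footprints (log2 fold changes, KO minus SCR), and Igf2r by -0.35 in input RNA and -1.06 in footprints.

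Promoter sequences were read from RefSeq (GRCm38.p6) as the 250 bases before each annotated start, and 6 of the 8 members had 12 such windows. They were searched on both strands for the E-box letters that MITF binds (CATGTG and CACGTG), the CREB element (TGACGTCA), the AP-2 letters (GCCNNNGGC), SOX letters (ACAAAG and ACAATG) and LEF and TCF letters (TCAAAG); no 2 matches within a window overlapped. One window is shown for each member whose transcript changed, chosen because it holds a match. Of the 3 Mitf windows the other two hold none, and of the 3 Cited1 windows 1 holds none and 1 holds AP-2 letters in place of the E-box. They lie on chr5:75574737-75574986 (Kit, plus strand), chrX:102251844-102252093 (Cited1, minus strand), chr6:97991533-97991782 (Mitf, plus strand) and chr8:123406832-123407081 (Mc1r, plus strand), written 5′ to 3′ on the gene's strand, with matches in capitals (CTTTGA and CACATG are TCAAAG and CATGTG read on the other strand).
Kit: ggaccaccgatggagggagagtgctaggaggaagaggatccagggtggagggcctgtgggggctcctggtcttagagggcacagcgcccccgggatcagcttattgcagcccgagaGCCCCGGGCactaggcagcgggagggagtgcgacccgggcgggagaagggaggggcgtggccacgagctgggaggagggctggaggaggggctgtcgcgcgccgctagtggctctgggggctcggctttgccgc
Cited1: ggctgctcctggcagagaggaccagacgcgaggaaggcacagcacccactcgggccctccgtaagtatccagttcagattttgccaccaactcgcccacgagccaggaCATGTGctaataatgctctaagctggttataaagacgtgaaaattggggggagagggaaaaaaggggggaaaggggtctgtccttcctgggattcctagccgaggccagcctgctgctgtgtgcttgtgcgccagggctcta
Mitf: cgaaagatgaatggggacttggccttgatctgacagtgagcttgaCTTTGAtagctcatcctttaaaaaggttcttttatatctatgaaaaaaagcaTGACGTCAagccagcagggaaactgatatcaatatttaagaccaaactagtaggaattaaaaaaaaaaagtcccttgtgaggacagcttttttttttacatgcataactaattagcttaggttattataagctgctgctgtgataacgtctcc
Mc1r: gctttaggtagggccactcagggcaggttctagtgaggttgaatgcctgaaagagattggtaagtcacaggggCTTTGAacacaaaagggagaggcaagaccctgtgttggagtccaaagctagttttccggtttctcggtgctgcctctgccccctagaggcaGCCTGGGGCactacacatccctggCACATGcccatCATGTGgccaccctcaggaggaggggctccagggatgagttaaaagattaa
The Kit window holds the AP-2 letters 134 bases before the start, and the Cited1 window holds the E-box letters CATGTG 142 bases before it. In the Mitf window the CREB element lies 153 bases and the LEF and TCF letters lie 205 bases before the start. The Mc1r window holds the E-box letters CATGTG at 62 and 51 bases, AP-2 letters at 86 bases and LEF and TCF letters at 177 bases before the start. Of all 32851 windows of that length, 12.2% hold CATGTG, 1.55% the CREB element, 13.7% the AP-2 letters and 13.8% the LEF and TCF letters. Of the members' 12 windows, 2 hold CATGTG, 1 the CREB element, 5 the AP-2 letters and 2 the LEF and TCF letters, and the 2 Kit windows overlap, so that 1 match counts in both. CACGTG, in 6.02% of all windows, and the SOX letters, in 16.5% (ACAAAG) and 10.7% (ACAATG), were in none of the 12. A match is a description of the letters and not a bound site.

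The authors' list of 25309 open reading frames (ORFs) with footprint support, with coordinates as deposited (GRCm39 per the submitters' processing notes), holds 13 of 7 members. The annotated coding sequences are listed for Mitf (chr6:97784145-97995133), Sox10 (chr15:79040141-79049400), Pax3 (2 of them, the longer at chr1:78079441-78173386), Tfap2a (chr13:40870594-40887196), Cited1 (chrX:101291066-101292228), Kit (chr5:75735712-75815202) and Mc1r (chr8:124134249-124135193), with none for Ednrb. The other 5 are unannotated, 4 upstream of a coding sequence (uORFs) and 1 downstream (dORF). Over all genes the authors list 12061 unannotated ORFs, beside 1383 and 1614 on their lists larger in KO and in SCR cells. The places of the members' ORFs on these lists are given as a description. Mc1r has 2 uORFs, of 27 and 61 codons, both starting with ATG and both on the authors' list of unannotated ORFs larger in KO cells (1383 ORFs), with 71 and 110 in-frame footprint positions (P-sites) and 10.2 and 7.01 RPKM. The Mc1r dORF of 62 codons is on the list larger in SCR cells (1614 ORFs), with 15 P-sites and 0.94 RPKM. Pax3 has a uORF of 12 codons starting with CTG (chr1:78173414-78173449), with 173 P-sites and 56.0 RPKM, and another of 28 codons starting with ACG, with 35 P-sites and 4.86 RPKM, the second given only in the list larger in SCR cells, which holds both. The Mitf uORF of 20 codons (chr6:97968758-97968817) is on neither list. The sources used here do not say which libraries entered the P-site counts, so these are the authors' values with no spread between replicates.

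Genes around the members were read from 9 lists in the same fits, and their counts are to be read against the share of all genes given above. In translational efficiency the genes tested include some with few counts in 1 assay and a very wide error, such as Ednra (SE 4012.9). Of 20 pigment genes 6 rose and 5 fell in input RNA (median log2 fold change 0.01). The melanosomal channel gene Oca2 fell (-1.68, SE 0.15, edgeR adjusted p = 0.0021), while the melanin enzyme gene Dct (0.43), the vesicle gene Rab32 (0.60) and the melanosome gene Mlana (0.59) rose. In footprints 1 pigment gene fell, Oca2 (-0.95), and 0 rose. Footprints per transcript fell for Mlana (-0.73) and Pmel (-0.79), which encodes the melanosome fibril, with 0 rises.

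Of 23 genes of KIT signalling and MAPK feedback, 6 rose and 1 fell in input RNA (median -0.04). The ERK phosphatase genes Dusp4 (0.62, SE 0.07, edgeR adjusted p = 0.0043) and Dusp6 (0.42), the phosphatase gene Ptpn11 (0.36) and the RAF inhibitor gene Spred2 (0.40) rose. Dusp6 rose in footprints too (0.72), the 1 call among 19 tested there, and 0 of 21 were called in translational efficiency. Among ligands and receptors that act with the member receptors, 3 of 8 tested fell and 0 rose in input RNA (median -0.20). They were Ece1, the enzyme that activates endothelins (-1.27, SE 0.19, edgeR adjusted p = 0.0085), Erbb3, a neuregulin receptor (-0.46), and Atrn, the attractin that takes part in agouti signalling (-0.29). Ece1 also fell in footprints (-0.74), 1 of 6 tested, and 0 of 9 were called in translational efficiency.

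Of 24 genes of the cyclic AMP arm, 2 rose and 2 fell in input RNA (median -0.07): the adenylate cyclase gene Adcy7 (0.33) and the CREB coactivator gene Crtc1 (0.25) rose, and the acetyltransferase genes Crebbp (-0.27) and Ep300 (-0.20) fell. In footprints the cyclase genes Adcy3 (-0.61) and Adcy6 (-0.41) fell and 0 of 24 rose, and in translational efficiency Adcy3 fell (-0.55) and the coactivator gene Ppargc1a rose (0.59). Of 7 partners of CITED1 and AP-2 tested, Kctd15 rose (0.33) and Cited2 (-0.43), Crebbp and Ep300 fell in input RNA (median -0.17), 0 were called in footprints, and Kctd15 fell in translational efficiency (-0.47). The MITF relatives Tfeb (-0.24, SE 0.08, edgeR adjusted p = 0.0941) and Tfe3 (-0.17, SE 0.06, edgeR adjusted p = 0.112) were called in no assay.

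Other neural crest and melanocyte regulators had 2 rises and 3 falls among 19 tested in input RNA (median 0.01). Irf4, a factor that works with MITF at the tyrosinase gene, fell (-3.26, SE 0.23, edgeR adjusted p = 0.000802), as did Hes1 (-0.87), a Notch target, and Sox6 (-0.35), while Myc rose (0.22). In footprints 0 of 17 were called, and Irf4 was not among those tested. In translational efficiency Sox6 rose (0.40, SE 0.09), 1 of 20, only just past the threshold (edgeR adjusted p = 0.04997), and Irf4 was not called (1.34, SE 1.15). Of 17 other MITF targets, 3 rose and 4 fell in input RNA (median -0.06), led by Bcan (1.44), Sema6d (-1.04), Hif1a (-0.44) and Gpr137b (0.33). Sema6d (-1.17) and Cdkn1a (-0.58) fell in footprints, with 0 rises among 16 tested, and 5 of 17 fell in translational efficiency, among them Cdkn1a (-0.62), Bcan (-1.30), Scd2 (-0.56) and Dicer1 (-2.47). Of 13 genes of the undifferentiated state, a list drawn from human melanoma, 3 rose and 6 fell in input RNA (median -0.21). The receptor genes Axl (-1.97, SE 0.13, edgeR adjusted p = 0.000647) and Ngfr (-2.30) and the factor gene Tead1 (-0.28) fell, and Thbs1 (0.61) rose. In footprints Ccn1 (-0.90) and Axl (-0.69) fell, with 0 rises among 11 tested. In translational efficiency 2 rose, among them Axl (1.27), and 3 fell, Ccn1 (-0.75), Thbs1 (-0.71) and Ccn2 (-1.50).

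In the tumours, 8361 KO and 8239 SCR cells passed the filters, and 1 of 22 clusters was melanoma-like, with Pmel, Dct, Tyr, Tyrp1 and Slc45a2 among its 10 leading genes. It held 200 KO and 163 SCR cells, or 2.39% and 1.98% of the cells, with medians of 34994 UMIs (counted molecules) per KO cell and 38553 per SCR cell. The members were left out of the genes clustered. The melanoma-like cells had passed the sort for CD45, although Ptprc, which encodes it, had a UMI in 13.5% of the KO and 18.4% of the SCR melanoma-like cells, against 77.6% of the other cells. Macrophage and monocyte markers summed to 355 CPM (here the UMIs of a gene scaled to a common total) in KO and 402 CPM in SCR melanoma-like cells, against 13574 CPM in the other cells; their part in the results was not tested. Of 116 barcodes that both libraries share, 2 KO and 2 SCR barcodes were melanoma-like. With 1 library per genotype there is no test, and intervals cover counting error only.

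Among melanoma-like tumour cells 2 of the 7 members with at least 100 UMIs differed by more than 1.5-fold between the libraries. Kit was higher in KO cells and Cited1 was lower. Of all 9207 genes with as many UMIs over both libraries, 3.56% were higher in KO cells by that fold and 2.28% were lower. Kit reached 100 UMIs only through the KO cells, where it was high, so its place in the count is a description and nothing is read from it against the share of all genes. Kit thus lay in the opposite direction to cultured cells, and Cited1 in the same direction. Mettl5 was at 22.0 CPM in KO and 31.7 CPM in SCR melanoma-like cells.

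Kit had 168 UMIs in KO and 32 UMIs in SCR melanoma-like cells, or 23.9 CPM (exact Poisson 95% interval 20.4 to 27.7) and 5.2 CPM (3.56 to 7.35). The KO to SCR ratio was 4.58 (exact 95% interval 3.13 to 6.92), and 6.84 without the cell with most Kit UMIs in each library, a setting chosen after seeing the data. A Kit UMI was seen in 47 KO cells, 23.5% of them, and in 7 SCR cells, 4.29%. The lower Clopper-Pearson 95% bound in KO cells was 17.8%, and the upper bound in SCR cells was 8.65%. These bounds treat the cells of a library as independent and do not cover the spread between tumours. Their separation is therefore no test of genotype. Among the cells with a Kit UMI, 31 KO and 5 SCR cells had at least 2 Kit UMIs, and 12 of the 32 SCR UMIs came from 1 cell. With each cell thinned to 10000 UMIs, leaving out 11 shallower KO and 13 SCR cells, the share was 14.8% in KO (10.1 to 20.7) and 2.67% in SCR cells (0.731 to 6.69). In the largest cluster of other cells, led by Vcan and Ly6i, 0.328% of cells had a Kit UMI at a median of 6230 UMIs.

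Markers of mast cells, which use KIT themselves, summed to 0.426 CPM in KO and 0.488 CPM in SCR melanoma-like cells, with 4 of 5 at 0 in KO cells and 2 of 5 in SCR cells. Ptprc had a UMI in 14.9% of the 47 KO cells with Kit and in 13.1% of the 153 KO cells without it, at medians of 42938 and 32108 UMIs per cell. In SCR it had a UMI in 28.6% of the 7 cells with Kit and in 17.9% of the 156 cells without it, at medians of 40234 and 38484 UMIs. The median share of melanoma marker UMIs was 1.04% in KO cells with Kit and 1.16% in KO cells without it. Leaving out cells with UMIs of Ptprc and of macrophage or T cell markers (24 KO and 29 SCR cells), the Kit ratio was 6.48.

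Markers of dendritic cells were higher in KO melanoma-like cells, as Kit was, at 5.82 CPM in KO (3 of 5 at 0) and 0.813 CPM in SCR (1 of 5 at 0). Of the 41 UMIs in KO cells 39 were of Ccr7, and all lay in 8 cells, of which 2 had Kit, while the 5 UMIs in SCR cells lay in 5 cells, of which 1 had Kit. Without these cells, a setting chosen after seeing the data, 161 Kit UMIs were left in KO and 21 in SCR cells, and the ratio was 6.84 (exact 95% interval 4.33 to 11.4). The markers (Flt3, Xcr1, Clec9a, Siglech and Ccr7) include no leading gene of the Cd209a and Ifitm1 cluster, where Kit was at 34.8 CPM in the KO library. The part of such cells in the Kit difference was not tested. Markers of B cells were at 4.26 CPM in KO and 1.79 CPM in SCR melanoma-like cells, and their part in the Kit difference was not tested.

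Cited1 had 391 UMIs in KO and 580 UMIs in SCR melanoma-like cells, or 55.5 CPM (50.2 to 61.3) and 94.3 CPM (86.8 to 102). The KO to SCR ratio was 0.588 (exact 95% interval 0.516 to 0.67). The share of cells with a UMI was 55.0% in KO (47.8 to 62.0) and 58.3% in SCR cells (50.3 to 65.9). The counting intervals of the shares overlapped while those of the levels did not, and neither covers the spread between tumours. One KO cell held 43 and 1 SCR cell 58 Cited1 UMIs, and without these cells the ratio was 0.581. Thinned to 10000 UMIs, 32.8% of KO and 35.3% of SCR cells had a Cited1 UMI.

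The transcription factors differed less. Mitf was at 508 CPM in KO (491 to 525) and 554 CPM in SCR melanoma-like cells (536 to 573), a ratio of 0.915 (0.873 to 0.96). Sox10 was at 254 CPM in KO and 232 CPM in SCR cells (ratio 1.1, interval 1.02 to 1.18), Pax3 at 330 and 335 CPM in KO and SCR cells (ratio 0.984, interval 0.927 to 1.04), and Tfap2a at 53.8 and 49.0 CPM in KO and SCR cells (ratio 1.1, interval 0.942 to 1.28). A Sox10 UMI was found in 98.0% of KO and 91.4% of SCR cells, with intervals that just overlapped, and in 85.7% of KO and 82.7% of SCR cells thinned to 10000 UMIs. Mc1r was at 64.6 CPM in KO and 62.6 CPM in SCR cells (ratio 1.03, interval 0.899 to 1.18), and Ednrb had 2 UMIs in each library, in 1.0% of KO (0.121 to 3.57) and 1.23% of SCR cells (0.149 to 4.36), below its share of 3.64% in the other cells. Over all 9207 genes the median ratio was 1.03.

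**Figure D3:**
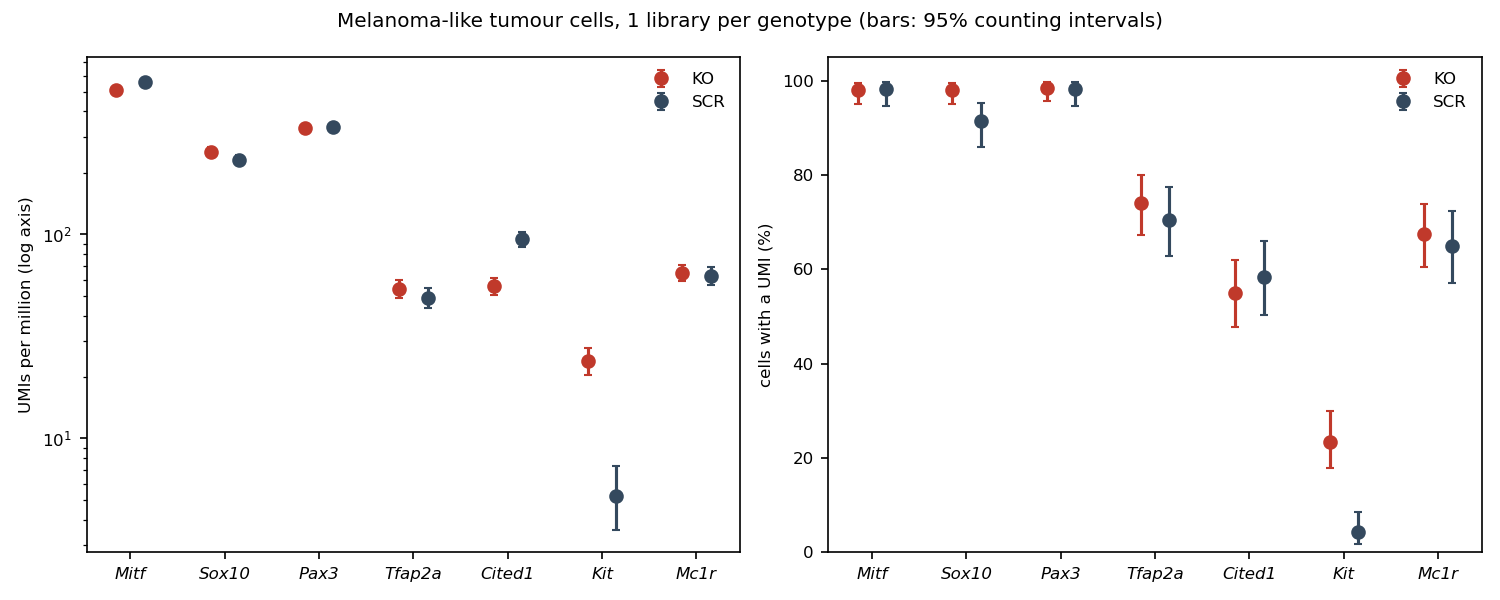
Members in melanoma-like tumour cells of the KO and SCR libraries: UMI CPM on a log axis with exact Poisson 95% intervals (left) and the percent of cells with a UMI with Clopper-Pearson 95% intervals (right). Kit lies higher in KO than in SCR cells in both panels, at 23.9 against 5.2 UMI CPM, and Cited1 lies lower in the left panel, at 55.5 against 94.3.

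Outside the melanoma-like cluster the members were of 2 kinds. Sox10, Pax3, Tfap2a, Cited1 and Mc1r had 0.438 to 1.33 CPM in the other cells together, with a UMI in 0.419 to 1.21% of them. An unnamed cluster of 498 cells with a median of 1302 UMIs, led by Gm56663 and Mlana, had more, with 34.8 CPM of Sox10 and 24.9 CPM of Pax3. Mitf, Kit and Ednrb were present in other cells as well. Mitf was at 80.7 CPM in the other cells, with 153 CPM in a cluster led by Inhba and Cxcl3 (1070 cells) and 8.86 CPM in one led by Gzma and Klra4 (496 cells). It was at 404 CPM in a cluster led by 2900060B14Rik and Iqcn (510 cells), whose cells were shallow, with a median of 2389 UMIs. Pax3 was at 13.1 CPM there, from 21 UMIs. The melanoma-like cluster had 529 CPM of Mitf at a median of 36652 UMIs.

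Kit in melanoma-like cells, at 23.9 CPM in the KO and 5.2 CPM in the SCR library, lay below its level in 3 of 21 other clusters in KO and in 6 of 21 in SCR. In cells led by Col3a1 and Col1a1 Kit was at 27.4 CPM in KO (33 cells) and 52.8 CPM in SCR (25 cells). In those led by Cd209a and Ifitm1 it was at 34.8 CPM in KO and 28.6 CPM in SCR, and in those led by Fscn1 and Cacnb3 at 24.2 CPM in KO and 29.4 CPM in SCR. These 3 were above the melanoma-like cells in both libraries. Cells led by Gzma and Klra4 were above them in SCR, at 50.2 CPM, and not in KO, at 20.6 CPM. A Kit UMI was found in 25.9% of cells led by Col3a1, 20.5% of those led by Cd209a, 15.9% of those led by Fscn1 and 5.44% of those led by Gzma, both libraries together.

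Ednrb was highest at 213 CPM in cells led by Cd209f and Cd209g (219 cells, 49.8% with a UMI) and 148 CPM in cells led by Col3a1 and Col1a1 (41.4% with a UMI), against 0.303 CPM in the melanoma-like cluster. The Ednrb levels are over both libraries, and no test was made between clusters.

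**Figure D4:**
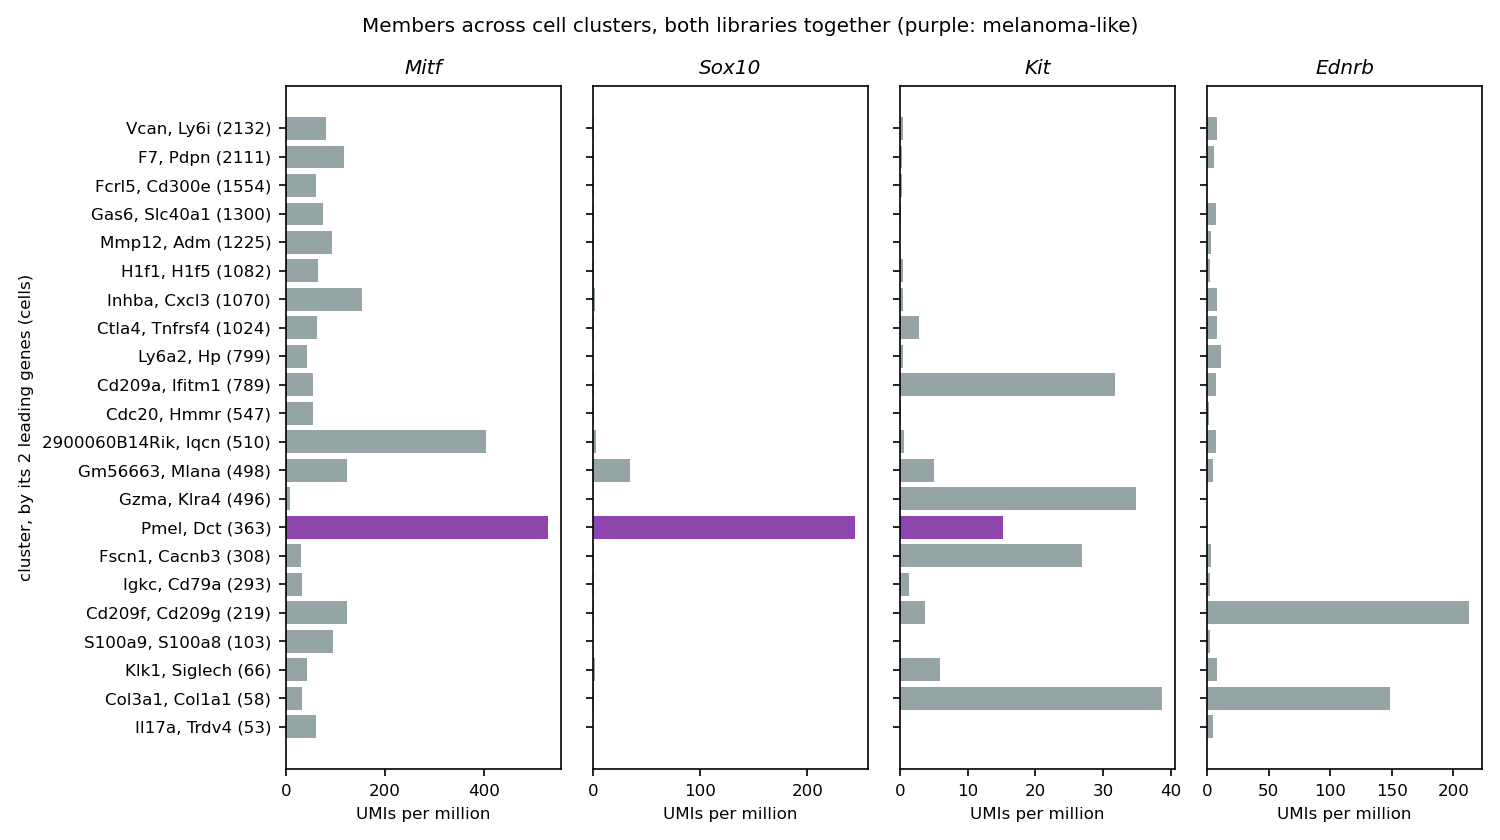
Level (UMI CPM, horizontal axes from 0) of Mitf, Sox10, Kit and Ednrb in 22 clusters of tumour cells of both libraries together, each cluster named by its 2 leading genes with its number of cells; the melanoma-like cluster is purple. Sox10 stands almost alone there at 244 UMI CPM, Kit over both libraries is at 15.2 there and higher in 4 other clusters, and Ednrb peaks at 213 in cells led by Cd209f.

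Of the gene lists, the pigment genes showed none of 19 members with at least 100 UMIs past 1.5-fold in melanoma-like tumour cells (median KO to SCR ratio 0.946), where 3.56% of all genes were higher and 2.28% lower in KO cells (median 1.03). Genes of KIT signalling and MAPK feedback had none of 18 (median ratio 1.01). Other neural crest regulators had 2 of 12 higher and 0 lower in KO cells (median 1.07), and genes of the undifferentiated state 2 higher and 1 lower of 9 (median 1.07). Other MITF targets had 1 higher and 2 lower of 15 (0.938), the cyclic AMP arm 1 lower of 23 (1.01), ligands and receptors 1 lower of 4 (0.884), and the MITF relatives and the partners of CITED1 and AP-2 none of 2 (0.995) and none of 6 (1.01).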

How the data were processed

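The authors deposited estimated counts per gene, all of them whole numbers and none normalized; the tools in the submitters' processing notes are STAR 2.7.10a and StringTie 2.1.7, with no role stated. Footprints came from cells given cycloheximide (100 µg/ml, 8 min) and RNase (40 min at 22 C), per the labels' protocols. The columns headed POOL were read as KO, since the rest are headed SCR, and 0 count columns were left unused. The tumour library labelled SCR is named WT in its files. Per the file headers, Cell Ranger 8.0.1 made the UMI counts. The authors deposited TE as a ratio with its log2 fold change and p-value, and for each unannotated ORF a count of P-sites, an RPKM value and a p-value; the score column of the deposited ORF lists is 0 throughout. The tools behind TE and ORFs are not given in the sources used here. T-cell receptor files were not used here.

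Counts were fitted in R 4.3.3 with edgeR 4.0.16 (TMM, filtering by expression, quasi-likelihood F test, Benjamini-Hochberg adjusted p below 0.05 over all genes tested), with separate fits for input RNA, footprints and translational efficiency, the last with a term for genotype by assay, over 8 libraries; SE and 95% intervals come from the fit. Fold changes are KO minus SCR. DESeq2 1.42.0 and limma 3.58.1 (voom) were alternatives, with other scaling, no filter, a replicate block and each library left out in turn. The fits were also run on simulated counts with known changes, as a check of the code, and nothing is read from that run about the real libraries. Cells with at least 500 UMIs, 300 genes and under 10% mitochondrial UMIs were clustered (2000 variable genes, 30 components, 20 neighbours, leidenalg 0.10.2 in Python 3.11.15). A cluster was melanoma-like with at least 3 melanoma markers among its top 10 genes by fold, counting genes in at least 10% of its cells. No doublet caller was run.

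Members and gene lists were chosen with earlier results of these data known. All members, Mettl5, up to 4 called genes per list by smallest p (otherwise up to 2 as values), the 3 nearest genes of members spanning at least 1 log2 unit and every listed ORF of a member were to be named. The clusters and the genes leading them were named after their values were seen.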

Additional observations from a re-analysis of the deposited data

Results flagged for a closer look

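Kit differed in direction between tumour and culture. Its level in melanoma-like tumour cells was 4.58 times higher in the KO library than in the SCR library, while in input RNA of cultured cells both KO libraries (28.3 and 29.2 CPM) lay below both SCR libraries (42.4 and 45.6 CPM). The difference between tumour and culture was not tested, since each genotype has 1 tumour library and the cells had passed a CD45 sort.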

How the results depend on the processing

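The 3358 genes called in input RNA were 1193 with no filter on low counts and 1031 to 4251 when 1 library was left out, the fewest without SCR replicate 1. The members called there, 4, were 2 to 4 when 1 library was left out. In footprints, 387 genes were called; 755 were with no filter, 1363 in DESeq2, 363 in limma voom with no block, 25 to 128 with 1 library left out and 0 with a replicate block in edgeR (3495 at an unadjusted p under 0.05). The 2 members called were 0 with a replicate block and 0 to 1 with 1 library left out. For translational efficiency, 921 genes became 1564 in DESeq2, 509 in limma voom, 0 to 591 with 1 library left out (0 in edgeR without KO input RNA replicate 1 or SCR input RNA replicate 2, with 3569 and 3659 at an unadjusted p under 0.05, and 3 without SCR input RNA replicate 1) and 0 with a replicate block (4617 unadjusted). Its 2 members called were 1 with DESeq2 size factors, 1 with no filter, 0 in limma voom, 0 with a replicate block and 0 to 1 with 1 library left out. Changes near 0 turned sign when 1 library was left out: Pax3 in input RNA (-0.066 to 0.13), and Sox10 (-0.10 to 0.014), Pax3 (-0.034 to 0.16) and Tfap2a (-0.088 to 0.16) in translational efficiency. The cause was not tested.

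Replicate numbers are shared by the groups but nothing says that they pair libraries. Deviations of same-numbered KO and SCR libraries correlated at 0.028 in input RNA and 0.051 in footprints, over 13779 genes and 2 pairs. The replicate block left 4 members called in input RNA.

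Among melanoma-like cells, the 2 members past 1.5-fold and the 1 member with separate intervals of its share (Kit) were 2 and 1 in every alternative run. How many of all genes have separate intervals of their share was not counted, so nothing is read from that 1 member. The alternatives reuse the same libraries and largely the same cells, so unchanged counts are a description and not an independent check. Kit had enough UMIs for the 1.5-fold count only through the KO cells, where it was high, so nothing is read from its place there. The rule per cell, at least 0.5% melanoma marker UMIs (a cut set after seeing the data), took 203 KO and 160 SCR cells, with 63 KO and 30 SCR cells between 0.3 and 0.7%, and gave a Kit ratio of 4.72 and a Cited1 ratio of 0.57. Ednrb was below detection in culture and was not tested there, and 1 tumour library per genotype limits all values from tumours.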
